A study of Mus musculus with 24 samples.

Results

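The effect of FGF21 deletion on the kidney cortex of mice fed normal protein was measured in 12 of the 24 libraries of the series, chosen by genotype and diet in the labels: 6 from FGF21 knockout mice (KO_NP) and 6 from wild type mice (WT_NP). All mice were males with the strain background C57BL6/J and were 22 months old. Both genotypes had eaten the normal protein (NP) diet, in which casein made up 20%, freely since the age of 3 months. The other 12 libraries came from males of the same 2 genotypes, background and age on a low protein (LP) diet with 5% casein (KO_LP and WT_LP, 6 each), and their values are set beside those of the normal diet. The labels describe neither the kind of deletion nor how the knockout line was made and crossed. RNA was sequenced with Lexogen QuantSeq, which counts reads near the 3' end of transcripts. Each library has its own code in the labels, which do not say that each code is a separate mouse, so p-values measure the spread between these libraries.

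FGF21 is a hormone made chiefly by the liver, which releases more of it during fasting and when dietary protein is short. It acts on cells that carry an FGF receptor, above all Fgfr1, together with the co-receptor beta-klotho (Klb). Kidney tubules are known for a related co-receptor, klotho (Kl), through which FGF23 controls phosphate handling.

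The 6 KO_NP libraries held 10731617 to 16290522 counts and the 6 WT_NP libraries 10576431 to 21063652. Mitochondrially encoded genes took 28.1% ± 1.54 of the counts in KO_NP and 25.3% ± 1.97 in WT_NP (SD, n = 6 each; two-sided exact permutation test, p = 0.0173, adjusted p = 0.0346 over 2 library measures), a difference whose adjusted p rose above 0.05 without KO_NP 1, 4, 5 or 6 or WT_NP 1 or 2. Library WT_NP 1 stood apart, with the highest mean log2 level of macrophage, T and NK cell, MHC, chemokine and tubular injury genes among the 12. At 13 of the genes called below, library KO_NP 6 did not lie beyond the wild type range in the direction of the call. This was more than in any other knockout library (1 to 7). Proximal tubule S1 and S2 markers had a mean of 7.99 to 8.79 log2 CPM (counts scaled to library size) in the 12 libraries, and 1 of 8 adrenal cortex markers, Star, was high enough to be tested. In such bulk samples, fewer cells of a type and less RNA per cell cannot be told apart.

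Fgf21 and Klb were not analysed here, so the genotype labels could not be checked on the targeted gene. Kl, the klotho gene, ranged from 92.5 to 186 CPM with a median of 144 in WT_NP and from 86.6 to 247 with a median of 226 in KO_NP. The groups overlapped (log2 fold 0.47, SE 0.26; edgeR quasi-likelihood test, adjusted p = 0.462). Fgfr1 ranged from 26.2 to 33.7 CPM in WT_NP and from 24.1 to 31.3 in KO_NP, again with overlap (log2 fold -0.04, SE 0.08; edgeR adjusted p = 0.86). Of 22 listed FGF receptors, co-receptors and feedback genes, 20 were tested and none was called (edgeR). At an unadjusted p under 0.05 were 5 of the 20, against 1915 (12.6%) of all genes tested. Their median log2 fold was -0.20, against -0.02 over all genes, with 14 members below 0 and 6 above. The smallest adjusted p of the list was that of Fgfr3 (edgeR, 0.111). Dusp6, a phosphatase induced by FGF signalling, was at 129 ± 9.99 CPM in WT_NP and 102 ± 16.5 in KO_NP (SD, n = 6; edgeR adjusted p = 0.179).

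Between the genotypes, 87 of 15165 tested genes (0.574%) passed an adjusted p of 0.05 in edgeR's quasi-likelihood test and are termed called: 52 (0.343%) were higher and 35 (0.231%) lower in KO_NP. Of the 87, 39 lay on chromosome 7, the chromosome of Fgf21. There 39 of 1195 tested genes (3.26%) were called, 21 higher and 18 lower, whereas 48 of 13970 genes (0.344%) were called on the other chromosomes. Chromosomes 9 and 19 came next, with 11 of 836 (1.32%) and 7 of 504 genes (1.39%). All 6 knockout libraries lay outside the range of the 6 wild type libraries in 63 of the 87 genes. Over all tested genes this held for 1.57% (0.778% with the knockout above, 0.791% below). DESeq2 called 246 genes, among them all 87, and without library KO_NP 1 edgeR called 52. With only the 12 compared libraries in the fit 62 of the 87 kept their call, and the rest lost it or were no longer tested. Of the genes named here Aldh1a7, Fam174b, Fxyd6, G6pc, Gm42397, Mpzl2, Slc5a3, Snord118 and Tmprss4 lost it (edgeR adjusted p = 0.0567 to 0.115). Gm9008, Gm15459, Gm17511, Gm26862 and Gm28078 fell below the count filter in that fit and were not tested.

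On GRCm38, Fgf21 starts at position 45615490 of chromosome 7, and distances are given from there, negative toward lower coordinates. From -21.0 Mb (Ethe1) to 54.6 Mb (Pgm2l1) lay 37 of the 39 calls. Of the tested genes, 5.45% were called in the 10 Mb on the lower side of Fgf21, 10.8% in the first 10 Mb on the higher side and 12.2% from 40 to 50 Mb. From 50 to 60 Mb the share was 1.02%, and from 60 to 80 Mb it was 0. The 2 calls farther out were Gm17511 and Cox6a2, at 81.7 and 82.6 Mb. Most genes next to Fgf21 were not called: 7 of 126 within 5 Mb and 3 of 21 within 0.25 Mb passed the test.

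**Figure D1:**
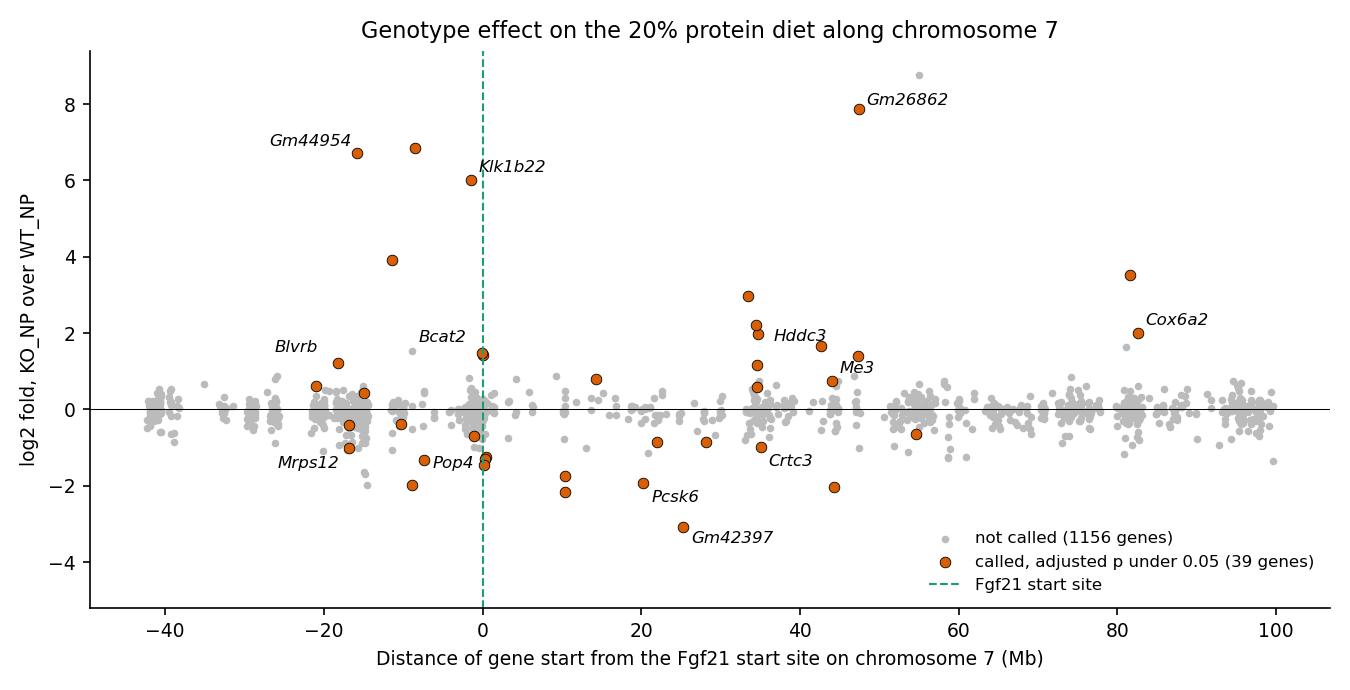
Each point is a tested gene of chromosome 7, placed by the distance of its start from the Fgf21 start site (x axis, Mb) and by its log2 fold of KO_NP over WT_NP (y axis); orange points are the 39 called genes. Of these, 37 lie between -21.0 and 54.6 Mb, with rises and falls intermixed.

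The lowest p-value of all genes was that of Klk1b22, a glandular kallikrein from a tandem family of serine protease genes on chromosome 7 (44112673 to 44116922, at -1.50 Mb). It ranged from 0.261 to 1.59 CPM with a median of 1.40 in WT_NP, and from 62.3 to 88.0 CPM with a median of 78.6 in KO_NP. No library of either group came near the other group. The log2 fold was 6.01 (SE 0.29; edgeR adjusted p = 2.71e-12), that is 64.5-fold. Its relatives were not called. Klk1, the abundant kidney kallikrein, was at 829 ± 234 CPM in WT_NP and 589 ± 118 in KO_NP (SD, n = 6; edgeR adjusted p = 0.304). Klk1b5, Klk1b8, Klk1b9, Klk1b21, Klk1b24 and Klk1b27, all under 2 CPM, had log2 folds between -0.22 (Klk1b27) and 0.57 (Klk1b21) and none was called. The test of Klk1b22 against its relatives was not made.

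Bcat2, which encodes the mitochondrial aminotransferase that opens the breakdown of branched chain amino acids, lies at -0.0453 Mb. It ranged from 5.89 to 11.8 CPM (median 10.5) in WT_NP and from 18.7 to 31.7 CPM (median 27.9) in KO_NP. The groups did not overlap, and the log2 fold was 1.47 (SE 0.15; edgeR adjusted p = 2.04e-06). Car11, a carbonic anhydrase relative without catalytic activity, lies at 0.0844 Mb and rose from 0.897 to 1.93 CPM (median 1.59) to 3.59 to 4.59 CPM (median 4.27), without overlap (log2 fold 1.44, SE 0.16; edgeR adjusted p = 6.87e-06). Dbp, a clock-controlled transcription factor whose gene lies next to Car11 at 0.0896 Mb, ranged from 43.1 to 146 CPM in WT_NP and from 92.8 to 144 in KO_NP and was not called (edgeR adjusted p = 0.671). Lmtk3, a membrane kinase at 0.168 Mb, fell from 2.50 to 5.33 CPM (median 3.10) to 0.773 to 1.64 CPM (median 1.25; log2 fold -1.44, SE 0.23; edgeR adjusted p = 0.00136). Its groups did not overlap either. Lmtk3 overlaps the counted gene Sult2b1 on the other strand, and whether the authors counted by strand is not known here.

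Farther from Fgf21 but within 5 Mb, 3 more genes fell. Emc10, a subunit of the endoplasmic reticulum complex that inserts membrane proteins, ranged from 99.0 to 115 CPM (median 109.8) in WT_NP and from 61.0 to 79.0 (median 65.2) in KO_NP, with no overlap (log2 fold -0.70, SE 0.07; edgeR adjusted p = 3.92e-07). Ccdc114, part of the docking complex of ciliary dynein arms, went from 2.76 to 4.78 CPM in WT_NP to 1.11 to 2.08 CPM in KO_NP, also without overlap (log2 fold -1.30, SE 0.23; edgeR adjusted p = 0.00404). Abcc6, the transporter whose loss causes ectopic calcification, went from 1.68 to 3.45 CPM to 0.644 to 1.55 CPM (log2 fold -1.24, SE 0.23; edgeR adjusted p = 0.00613). The calls of these 7 genes within 5 Mb held without any 1 of the 12 libraries. All 7 were also called, in the same direction, between KO_LP and WT_LP.

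**Figure D2:**
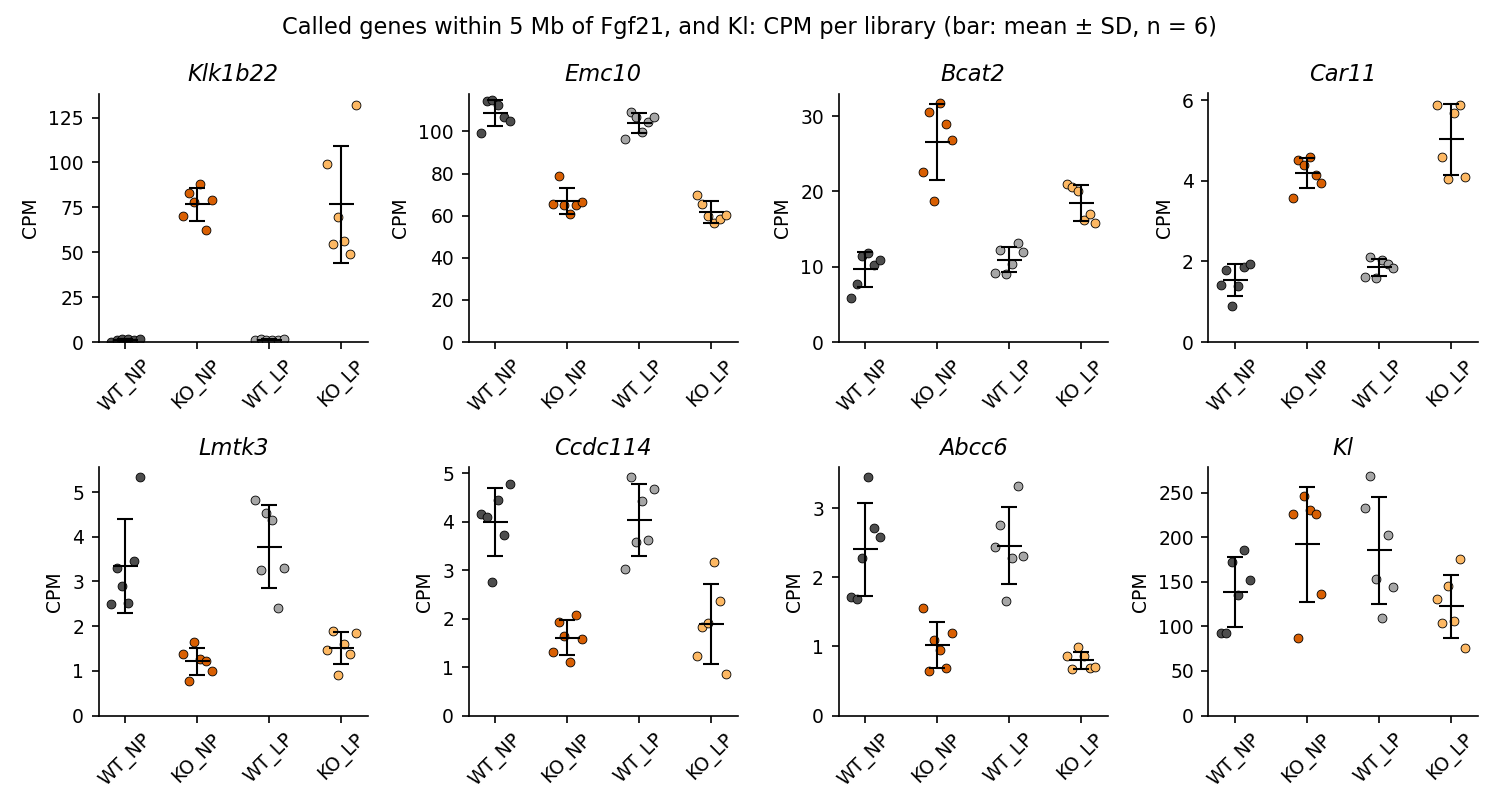
Each panel gives CPM per library (points) in the 4 groups for the 7 called genes within 5 Mb of Fgf21 and for Kl; bars are means ± SD of 6 libraries. For the 7 called genes the KO_NP and WT_NP points do not overlap, whereas those of Kl do.

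Farther out on chromosome 7, Hddc3, an HD domain hydrolase at 34.7 Mb, ranged from 5.52 to 8.30 CPM (median 6.57) in WT_NP and from 18.7 to 29.9 CPM (median 27.9) in KO_NP (log2 fold 1.99, SE 0.13; edgeR adjusted p = 1.89e-10). The groups did not overlap, and Man2a2, which overlaps Hddc3 on the other strand, was at 22.1 ± 2.03 and 21.7 ± 0.940 CPM (SD, n = 6; edgeR adjusted p = 0.913). Pop4, a subunit of the RNA-cutting enzymes RNase P and RNase MRP, lies at -7.34 Mb and fell from 12.5 to 16.9 CPM (median 13.7) to 4.86 to 6.83 CPM (median 5.58; log2 fold -1.34, SE 0.10; edgeR adjusted p = 4.52e-09). Crtc3, a coactivator of the cAMP-responsive factor CREB, fell from 18.5 to 26.2 CPM (median 22.4) to 9.85 to 14.4 CPM (median 11.2; log2 fold -0.98, SE 0.12; edgeR adjusted p = 1.67e-05). In neither gene did the groups overlap.

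Blvrb, a flavin and biliverdin reductase, rose from 19.4 to 25.9 CPM (median 23.4) to 41.5 to 67.8 CPM (median 54.4; log2 fold 1.21, SE 0.14; edgeR adjusted p = 8.32e-06). Pcsk6, a protease that matures secreted proteins, fell from 15.7 to 28.5 CPM (median 20.5) to 1.63 to 11.4 CPM (median 5.49; log2 fold -1.94, SE 0.32; edgeR adjusted p = 0.00196). In both genes the 6 knockout libraries lay outside the wild type range. Snhg14, the long noncoding RNA of the imprinted region around Ube3a, rose from 8.30 to 9.73 CPM to 13.8 to 16.7 CPM (log2 fold 0.79, SE 0.08; edgeR adjusted p = 1.65e-06), while Ube3a, which it overlaps, was at 184 ± 15.1 and 181 ± 16.8 CPM (SD, n = 6; edgeR adjusted p = 0.929). Lrrc28 fell from 16.3 to 20.1 CPM to 8.07 to 16.6 CPM (log2 fold -0.86, SE 0.17; edgeR adjusted p = 0.0134). Library KO_NP 6, at 16.6 CPM, overlapped the wild type range, and the highest of the other 5 knockout libraries was at 10.8 CPM.

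Cox6a2, the heart and muscle form of a cytochrome oxidase subunit, ranged from 1.47 to 5.11 CPM (median 3.12) in WT_NP and from 3.80 to 22.2 (median 15.1) in KO_NP (log2 fold 2.01, SE 0.39; edgeR adjusted p = 0.00866). Library KO_NP 4, at 3.80 CPM, lay within the wild type range. Cox6b1, a subunit of the same complex, ranged from 463 to 620 CPM in WT_NP and from 666 to 784 in KO_NP, without overlap (log2 fold 0.42, SE 0.10; edgeR adjusted p = 0.0421). Mrps12, a protein of the mitochondrial ribosome, fell from 56.0 to 75.6 CPM to 23.6 to 50.5 CPM (log2 fold -1.02, SE 0.22; edgeR adjusted p = 0.0282). Me3, a mitochondrial malic enzyme, rose from 16.7 ± 2.13 to 27.9 ± 5.02 CPM (edgeR adjusted p = 0.00177), and Ethe1, which oxidises persulfide, from 70.3 ± 7.55 to 108 ± 16.2 CPM (SD, n = 6; edgeR adjusted p = 0.0156). Cox6b1 lost its call without KO_NP 1, 2, 4, 5 or 6 or WT_NP 1, 5 or 6 (adjusted p up to 0.116), Mrps12 without KO_NP 1, 2, 3 or 6 or WT_NP 2, 3, 4 or 6 (up to 0.0902), and Ethe1 without KO_NP 1 or 5 or WT_NP 6 (up to 0.0651).

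Other chromosome 7 calls were of transcripts with almost no counts in wild type kidney. Gm28078, a long noncoding RNA, had 0 counts in the 6 WT_NP libraries and 74 in the 6 KO_NP libraries, and was at least 23.9-fold higher (lower limit of the exact 95% interval of the ratio, counting error only; 30.1-fold over a floor of 3 counts over the group). Gm26862 had 0 counts in WT_NP and 151 in KO_NP, at least 49.4-fold higher by the same limit (61.4-fold over the floor); it overlaps Fam181b on the same strand. Gm44954 had 1 count in WT_NP and 148 in KO_NP, a ratio per total count of 181 (95% exact interval 31.9 to 7180, counting error only). Gm42397 went the other way, from 4.32 to 12.5 CPM in WT_NP to 0.154 to 0.237 CPM in 5 KO_NP libraries, with KO_NP 6 at 5.04 CPM (log2 fold -3.09, SE 0.58; edgeR adjusted p = 0.00719). Fam174b, which fell from 12.2 ± 3.73 to 6.85 ± 1.21 CPM (SD, n = 6; edgeR adjusted p = 0.0282), lost its call without KO_NP 1, 2 or 3 or WT_NP 1 or 2 (adjusted p up to 0.0902).

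Among the largest fold changes were those of copies nearly identical to a gene elsewhere. Gm15459 on chromosome 5 differs at 5 of 1941 positions from Hspa8, the constitutive Hsp70 chaperone on chromosome 9. Gm11942 on chromosome 4 and Gm17511 on chromosome 7 differ at 9 of 345 and 17 of 342 positions from Rplp1, a ribosomal stalk protein also encoded on chromosome 9. Gm9008 on chromosome 6 is a 99.1% identical copy of Rnf26, a ubiquitin ligase gene of chromosome 9. Short reads near the 3' end cannot always be assigned between such copies, so their counts are uncertain. The last 120 coding bases of Gm11942 and Rplp1, from GENCODE transcripts on GRCm38, are shown because reads of 50 bases can fall there without meeting a difference; capitals mark the 5 differing bases:

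Gm11942: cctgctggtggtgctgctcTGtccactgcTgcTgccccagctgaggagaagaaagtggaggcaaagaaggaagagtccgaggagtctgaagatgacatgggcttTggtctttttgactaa

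Rplp1: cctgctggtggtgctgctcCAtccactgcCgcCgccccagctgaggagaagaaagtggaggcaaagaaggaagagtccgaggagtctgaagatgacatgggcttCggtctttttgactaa

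The knockout libraries differed among themselves in the counts on these copies. Gm11942 lay between 0.365 and 1.68 CPM in WT_NP. In KO_NP it was at 562, 740.4, 569 and 661 CPM in libraries 1, 2, 3 and 5, and at 1.42 and 1.68 CPM in libraries 4 and 6. Libraries 1, 2, 3 and 5 were thus far above wild type, whereas libraries 4 and 6 were not. Rplp1 was at 1120 ± 55.4 CPM in WT_NP (SD, n = 6). It stood at 1025 and 1041 CPM in KO_NP libraries 4 and 6 and at 689.7 to 906 CPM in the other 4 libraries. Thus Rplp1 was lower where Gm11942 was high. Gm17511 had no counts in the same libraries 4 and 6 and 2.28 to 3.48 CPM in the other 4.

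Gm15459 ranged from 0 to 0.266 CPM in WT_NP and from 58.0 to 143 CPM in KO_NP libraries 1 to 5, but was at 0.0988 CPM in KO_NP 6. Hspa8 itself ranged from 379.8 to 739.5 CPM in WT_NP and from 69.6 to 278 CPM in KO_NP 1 to 5, with 438 CPM in KO_NP 6; it was not called (log2 fold -1.17, SE 0.35; edgeR adjusted p = 0.138). Gm9008 was likewise at 0 in KO_NP 6 and at 1.50 to 4.69 CPM in KO_NP 1 to 5, while WT_NP did not exceed 0.247 CPM. The 4 copies were called in KO_NP against WT_NP, with fitted log2 folds that depend on the few wild type counts (9.58 for Gm15459, 8.89 for Gm11942, 4.42 for Gm9008 and 3.53 for Gm17511), although their groups overlapped through KO_NP 4 or 6. Limma with voom quality weights did not call any of the 4. Gm17511 also lost its edgeR call without KO_NP 1, 2, 3 or 5 or WT_NP 1, 3, 4, 5 or 6 (adjusted p up to 0.107). In all 6 KO_LP libraries Gm11942 was at 602 CPM or more and Gm15459 at 56.3 CPM or more.

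**Figure D3:**
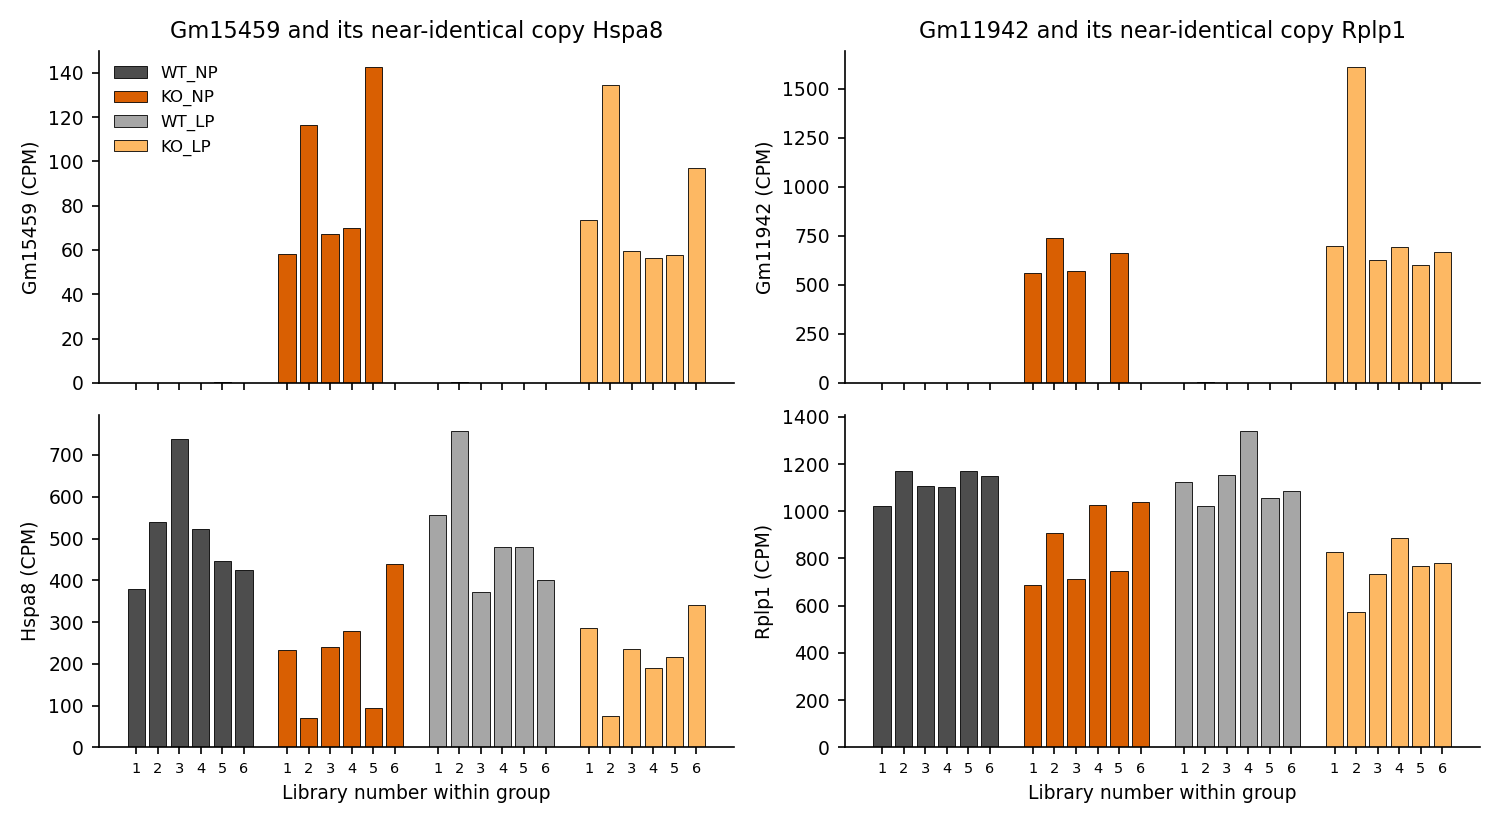
Bars give CPM per library, numbered 1 to 6 within each group, for Gm15459 above its near-identical copy Hspa8 (left) and Gm11942 above Rplp1 (right). Gm15459 is near 0 in KO_NP 6 and Gm11942 in KO_NP 4 and 6, as in the wild type libraries, and in these libraries Hspa8 and Rplp1 are the highest of their group.

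On the other chromosomes, 3 stretches of 10 Mb held 3 or more calls. That on chromosome 19 included Aldh1a1 (20492715 to 20643465) and Aldh1a7 (20692953 to 20727562), a neighbouring pair of aldehyde dehydrogenases; Aldh1a1 makes retinoic acid from retinal. Their promoters as RefSeq gives them on GRCm38.p6, from 250 bases before to 50 after the start, are printed because both genes rose. The windows lie at chr19:20601718-20602017 on the plus strand (of 2 RefSeq starts, the one whose window is more like that of Aldh1a7) and chr19:20727507-20727806 on the minus strand, and capitals mark CCAAT, searched on both strands after the sequences were seen:

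Aldh1a1: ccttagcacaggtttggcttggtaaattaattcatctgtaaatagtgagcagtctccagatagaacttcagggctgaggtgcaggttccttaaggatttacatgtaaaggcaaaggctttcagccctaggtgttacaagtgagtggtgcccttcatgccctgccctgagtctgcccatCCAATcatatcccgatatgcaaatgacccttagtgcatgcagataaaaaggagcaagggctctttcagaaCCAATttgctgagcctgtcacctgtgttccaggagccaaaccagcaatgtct

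Aldh1a7: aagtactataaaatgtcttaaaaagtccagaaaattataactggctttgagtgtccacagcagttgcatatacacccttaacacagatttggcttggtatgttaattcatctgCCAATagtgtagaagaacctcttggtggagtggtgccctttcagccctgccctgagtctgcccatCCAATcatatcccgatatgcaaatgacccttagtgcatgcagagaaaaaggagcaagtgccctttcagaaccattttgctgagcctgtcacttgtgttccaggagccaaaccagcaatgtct

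The likeness of these windows was in part fixed by that choice: the other Aldh1a1 window (chr19:20492333-20492632) was 50.8% identical to that of Aldh1a7 and held no CCAAT. The printed windows were identical in 223 of 315 alignment columns (70.8%) and shared a run of 65 identical bases that includes 1 CCAAT. Each printed window held CCAAT 2 times, and 11.7% of 32851 RefSeq promoters of this length hold it 2 or more times. Aldh1a1 ranged from 19.2 to 39.2 CPM (median 26.2) in WT_NP and from 55.8 to 114 CPM (median 88.8) in KO_NP. Aldh1a7 ranged from 18.2 to 53.1 CPM (median 31.3) in WT_NP and from 54.0 to 106 CPM (median 73.3) in KO_NP. Neither gene's groups overlapped, although for Aldh1a7 the gap was narrow. The log2 folds were 1.66 (SE 0.27; edgeR adjusted p = 0.00177) and 1.20 (SE 0.22; edgeR adjusted p = 0.0058). Both were called on low protein as well, Aldh1a1 with a log2 fold of 2.14 (edgeR adjusted p = 8.1e-05) and Aldh1a7 with an adjusted p of 0.00327.

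The stretch on chromosome 9, from 40 to 50 Mb, held 6 calls among 86 tested genes. Zbtb16, a transcription factor known for its induction by glucocorticoids, fell from 7.45 to 33.2 CPM (median 10.6) in WT_NP to 1.39 to 5.83 CPM (median 2.79) in KO_NP, without overlap (log2 fold -2.25, SE 0.39; edgeR adjusted p = 0.00363). Treh, the brush border enzyme that splits trehalose, rose from 22.98 to 30.7 CPM (median 28.8) to 37.6 to 69.9 CPM (median 50.9; log2 fold 0.87, SE 0.16; edgeR adjusted p = 0.00613), again without overlap. Fxyd6, a small regulator of the sodium pump, ranged from 6.42 to 9.48 CPM in WT_NP and from 6.13 to 23.5 in KO_NP, where library 6 was the lowest (log2 fold 1.02, SE 0.23; edgeR adjusted p = 0.0313). BC049352 rose from 0.460 to 1.41 CPM to 2.17 to 7.08 CPM (log2 fold 2.30, SE 0.29; edgeR adjusted p = 3.03e-05); it overlaps Tmprss4, a membrane protease gene called as higher, on the other strand. Mpzl2, an adhesion protein, was the last of the 6 and higher too, and Treh overlaps the counted gene Phldb1. Fxyd6 lost its call without KO_NP 1, 2, 4 or 5 or WT_NP 3, 4, 5 or 6 (adjusted p up to 0.103), Tmprss4 without KO_NP 1, 2 or 5 or any WT_NP library except 1 (up to 0.112), and Mpzl2 without KO_NP 1, 2 or 5 or any WT_NP library except 2 (up to 0.108).

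The stretch on chromosome 5 held 3 neighbouring UDP-glucuronosyltransferases, enzymes that conjugate steroids and drugs. Ugt2b37, the most abundant of them, ranged from 147 to 381 CPM (median 312) in WT_NP and from 360.5 to 947 CPM (median 704) in KO_NP. Its groups overlapped in a single knockout library, KO_NP 2, and the log2 fold was 1.18 (SE 0.27; edgeR adjusted p = 0.0483). Ugt2b5 rose from 2.30 to 3.67 CPM to 3.93 to 10.8 CPM (log2 fold 1.32, SE 0.25; edgeR adjusted p = 0.0074) and Ugt2a3 from 0.677 to 2.08 CPM to 2.51 to 6.97 CPM (log2 fold 1.72, SE 0.33; edgeR adjusted p = 0.00866), both without overlap. None of the 3 was called on low protein. Ugt2b37 and Ugt2b5 are 93.2% and 95.5% identical to Ugt2b38, so reads may be shared among them, and Ugt2b37 lost its call without KO_NP 1, 3, 4 or 5 or any 1 WT_NP library (adjusted p up to 0.128).

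Fat and glucose metabolism showed a few single changes. Scd1, which makes monounsaturated fatty acids, fell from 31.0 to 69.0 CPM (median 48.0) to 14.1 to 27.5 CPM (median 21.1), without overlap (log2 fold -1.26, SE 0.24; edgeR adjusted p = 0.00927). Its relative Scd2, 95.5% identical over the aligned part, stood at 22.7 ± 4.89 and 22.8 ± 5.25 CPM (SD, n = 6; edgeR adjusted p = 0.99). Elovl6, which elongates the substrates of Scd1, fell from 15.4 to 21.7 CPM to 9.70 to 15.5 CPM (log2 fold -0.54, SE 0.11; edgeR adjusted p = 0.0086); KO_NP 4, at 15.5 CPM, lay within the wild type range. These 2 were the only called genes of 23 listed for lipogenesis, whose median log2 fold was 0.01. No other member had an unadjusted p under 0.05 in edgeR (2 of 23, against 12.6% of all genes). G6pc, the glucose-releasing phosphatase of gluconeogenesis, ranged from 473 to 1079 CPM (median 660.2) in WT_NP and from 307 to 558 CPM (median 434) in KO_NP, with overlap through KO_NP 1 (log2 fold -0.75, SE 0.17; edgeR adjusted p = 0.0323). It was the only call among 15 tested genes of ammoniagenesis and gluconeogenesis (median 0.12, 3 of 15 at an unadjusted p under 0.05). The G6pc call was lost without KO_NP 2, 3, 5 or 6 or WT_NP 3 or 6 (edgeR adjusted p up to 0.104). Of 36 tested genes of fatty acid oxidation none was called (edgeR; 3 at an unadjusted p under 0.05, against 12.6% of all genes), and their median was -0.12.

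A few single genes of cell stress and solute balance were lower in KO_NP. Slc5a3, which imports the osmolyte myo-inositol, ranged from 99.3 to 236 CPM (median 172) in WT_NP and from 62.8 to 116 CPM (median 87.9) in KO_NP (log2 fold -0.98, SE 0.20; edgeR adjusted p = 0.0182). The groups overlapped through WT_NP 5, at 99.3 CPM. Cryab, a small heat shock protein, fell from 123 to 222 CPM (median 141) to 63.8 to 120.5 CPM (median 73.6; log2 fold -0.92, SE 0.19; edgeR adjusted p = 0.0224). Xbp1, the transcription factor of the unfolded protein response, fell from 99.9 to 149 CPM (median 137) to 64.6 to 102 CPM (median 86.4; log2 fold -0.65, SE 0.15; edgeR adjusted p = 0.0486). Its groups overlapped through WT_NP 4 and KO_NP 3, whereas those of Cryab did not. Bst2, the interferon-induced tetherin, fell from 7.11 to 13.8 CPM to 3.15 to 6.19 CPM (log2 fold -1.02, SE 0.24; edgeR adjusted p = 0.0421). Each of these calls depended on single libraries: Slc5a3 lost its call without KO_NP 1, 2 or 6 or WT_NP 3 or 6 (adjusted p up to 0.0665), Cryab without KO_NP 1, 2, 3 or 6 or WT_NP 3 (up to 0.0787), Bst2 without KO_NP 1, 2, 4, 5 or 6 or WT_NP 1, 5 or 6 (up to 0.12), and Xbp1 without any 1 except KO_NP 3 or WT_NP 4 (up to 0.131). Slc5a3 and Cryab overlap the counted genes Mrps6 and Hspb2.

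Further calls lay outside these stretches. Nepn, a small leucine-rich proteoglycan, rose from 5.21 to 13.7 CPM (median 10.6) to 17.6 to 32.8 CPM (median 24.96; log2 fold 1.35, SE 0.29; edgeR adjusted p = 0.022), and lost its call without KO_NP 1, 2 or 5 or WT_NP 1 or 6 (adjusted p up to 0.0724). Car12, a membrane carbonic anhydrase, rose from 61.5 to 102 CPM to 132 to 169.8 CPM (log2 fold 0.77, SE 0.17; edgeR adjusted p = 0.0275); this call was lost without KO_NP 1, 2 or 5 or WT_NP 1, 2 or 6 (up to 0.0807). Neither gene's groups overlapped. Snord118, a small nucleolar RNA that processes ribosomal RNA, fell from 5.32 to 8.80 CPM to 1.55 to 3.08 CPM in 5 knockout libraries, with KO_NP 6 at 7.41 CPM (log2 fold -1.23, SE 0.28; edgeR adjusted p = 0.0323). It has a 96.2% identical copy, Gm24208, and its call was lost without KO_NP 1, 2, 3, 4 or 5 or WT_NP 1, 2 or 5 (adjusted p up to 0.0977). Acp6, a mitochondrial lysophosphatidic acid phosphatase, rose from 35.4 to 41.2 CPM to 45.4 to 58.0 CPM (log2 fold 0.41, SE 0.08; edgeR adjusted p = 0.0081) and Nmnat3, which makes NAD, from 11.6 to 15.4 CPM to 16.0 to 22.6 CPM (log2 fold 0.45, SE 0.09; edgeR adjusted p = 0.0081), and both calls held without each library.

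Most respiratory chain genes had small log2 folds above 0. Of 75 tested nuclear genes of oxidative phosphorylation, 74 had a log2 fold above 0, with a median of 0.16 against -0.02 over all genes. The mean level of this list per library overlapped, at 7.866 to 8.272 log2 CPM in WT_NP and 8.115 to 8.421 in KO_NP. Cox6b1 alone was called (edgeR, 7 of 75 at an unadjusted p under 0.05, against 12.6% of all genes). All 8 tested mitochondrially encoded mRNAs were above 0 (median 0.25, none called by edgeR; 2 at an unadjusted p under 0.05, against 12.6% of all genes). Of 44 tested genes of amino acid catabolism, 39 were above 0 (median 0.17) and Bcat2 alone was called (edgeR, 8 of 44 at an unadjusted p under 0.05). Proximal tubule S1 and S2 markers had a median of 0.22, with 12 of 15 above 0 and none called (3 of 15 at an unadjusted p under 0.05, 12.6% over all genes). Their mean level was lowest in WT_NP 1, at 7.99 log2 CPM, and their part in the other medians above 0 was not tested. Without WT_NP 1 these medians were 0.11 for oxidative phosphorylation, 0.19 for mitochondrial mRNAs, 0.10 for amino acid catabolism and 0.13 for the tubule markers. On low protein all 4 had the opposite sign (-0.16, -0.34, -0.21 and -0.18). Red cell transcripts such as Hba-a1 and Alas2 had a median of 0.88, with 7 of 7 above 0 and none called (4 of 7 at an unadjusted p under 0.05, 12.6% over all genes), and without KO_NP 2 it was 0.35.

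Immune and injury genes had medians below 0, which lay closer to 0 or above it without library WT_NP 1. Of 30 tested genes of tubular injury and repair, such as Havcr1 and Lcn2, 28 were below 0 with a median of -0.59, and none was called (7 of 30 at an unadjusted p under 0.05, against 12.6% of all genes). Without WT_NP 1 the median was -0.14. Interferon-stimulated genes had 37 of 39 below 0 and a median of -0.32 (30 of 39 and -0.15 without WT_NP 1). Bst2 alone was called (edgeR, 4 of 39 at an unadjusted p under 0.05, against 12.6% of all genes). MHC genes had a median of -0.39 (-0.14), and T and NK cell markers had -0.42 (-0.16). Macrophage and dendritic cell markers went from -0.30 to 0.14 without WT_NP 1, and chemokines, cytokines and complement genes from -0.24 to 0.16, so that their direction turned. The mean level of the macrophage list was 6.61 log2 CPM in WT_NP 1 and 4.76 to 5.31 in the other 5 wild type libraries, beside 4.75 to 5.60 in KO_NP. These last 4 lists held no called gene (3 of 19, 0 of 17, 0 of 20 and 3 of 29 at an unadjusted p under 0.05, 12.6% over all genes).

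Without WT_NP 1, 8 of 47 list medians changed sign, and the lists that follow were among those that kept their direction. Immediate early genes such as Ier2 and Klf4 were all below 0 (19 of 19, median -0.46, none called, 7 of 19 at an unadjusted p under 0.05, against 12.6% of all genes), and 18 of 19 stayed below 0 without WT_NP 1 (median -0.30). Their mean level per library was 3.21 to 3.56 log2 CPM in KO_NP. This lay within the wild type range of 3.123 to 4.539, which reached 4.342 without WT_NP 1. In the unfolded protein response 19 of 22 genes were below 0 with a median of -0.24 (-0.23 without WT_NP 1). Xbp1 was called there (8 of 22 at an unadjusted p under 0.05, against 12.6% of all genes). Heat shock chaperones had 12 of 16 below 0 (median -0.25, -0.28 without WT_NP 1) with Cryab called (6 of 16 at an unadjusted p under 0.05). Glucocorticoid-responsive genes had 15 of 19 below 0 (median -0.34, -0.25 without WT_NP 1) with Zbtb16 called (5 of 19 at an unadjusted p under 0.05). In the unfolded protein, heat shock and glucocorticoid lists, a wild type library other than WT_NP 1 had the highest mean level. These highest means were 6.497, 6.945 and 5.982 log2 CPM, against 6.101, 6.13 and 5.391 in WT_NP 1. The medians without those libraries are not given here. Podocyte markers had 11 of 12 below 0 (median -0.39, -0.26 without WT_NP 1) and none called (6 of 12 at an unadjusted p under 0.05, 12.6% over all genes). The male-biased kidney genes, measured here in males only, had 19 of 23 above 0 (median 0.25) with Ugt2b37 called (6 of 23 at an unadjusted p under 0.05).

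**Figure D4:**
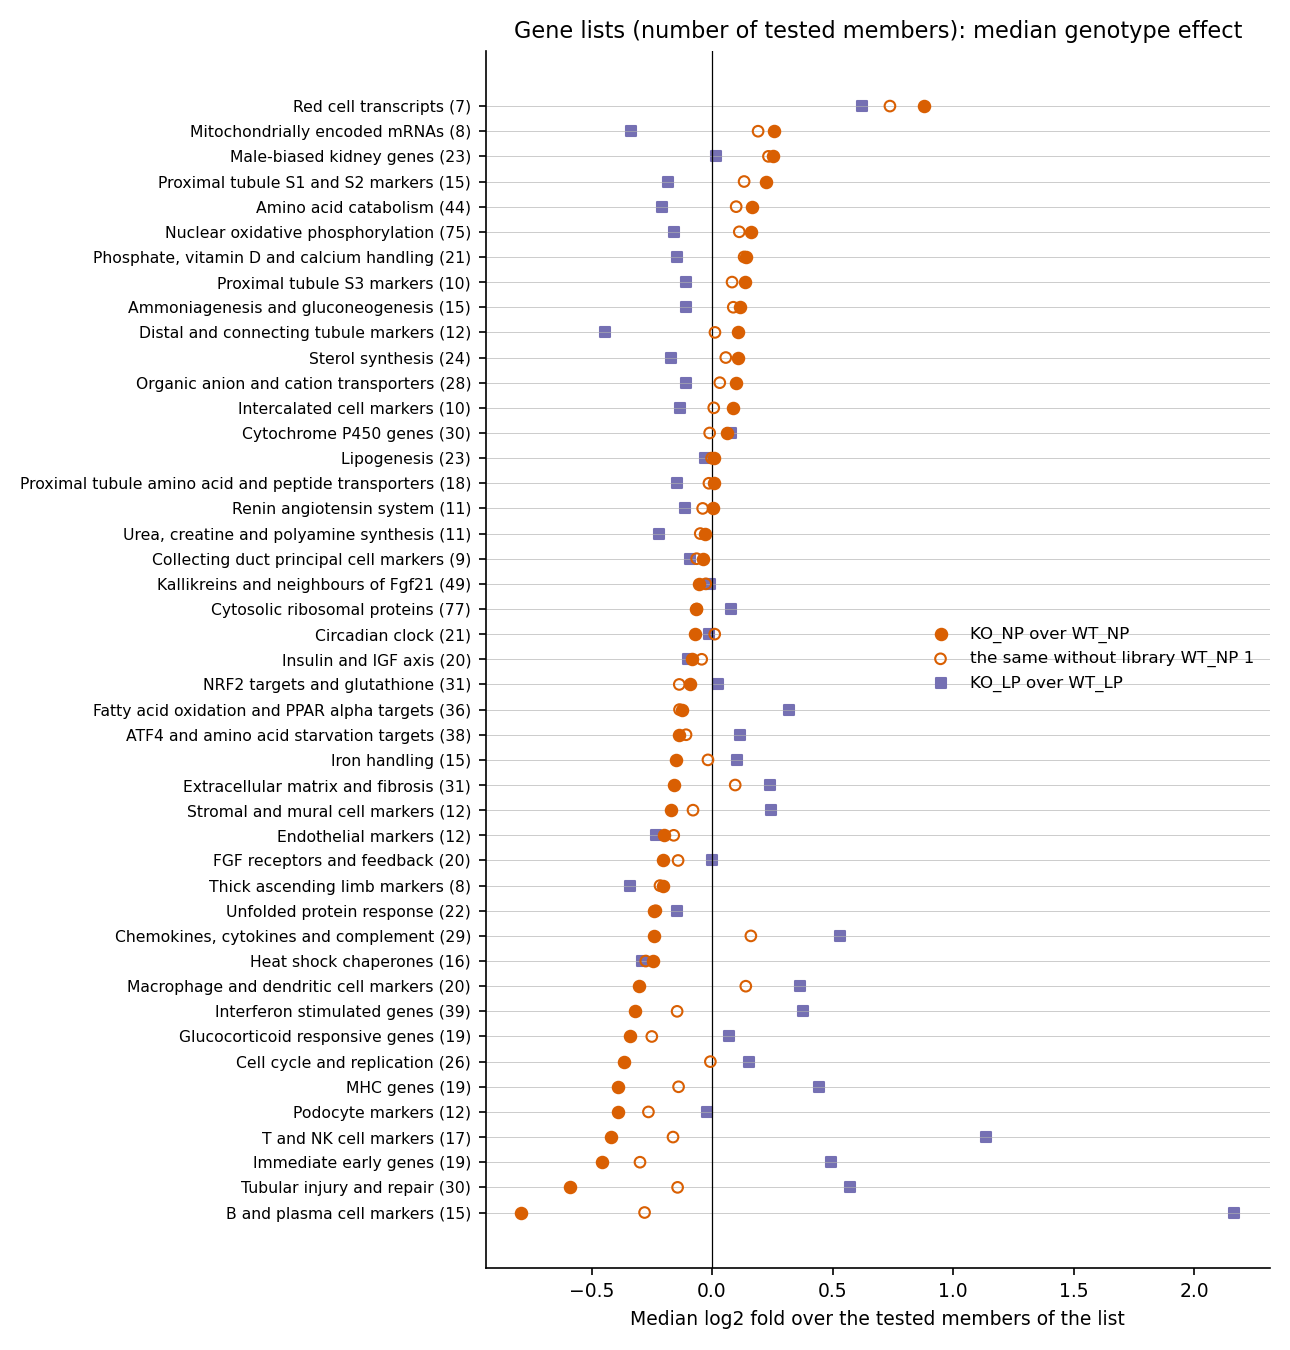
Filled orange points give the median log2 fold of KO_NP over WT_NP over the tested members of each list (number in parentheses), open points the same without library WT_NP 1, and squares KO_LP over WT_LP. Immune and injury lists move toward 0 or past it without WT_NP 1, and lists that lie below 0 on normal protein often lie above 0 on low protein.

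The comparison of KO_LP with WT_LP contrasts other libraries than that on normal protein. Both came from 1 fit of all 24 libraries with a shared spread, so they are not independent tests. On low protein 445 of the 15165 genes were called (2.93%, 204 higher and 241 lower). Of the 87 genes called on normal protein, 45 (51.7%) were among them, 10.1% of the low protein calls, and all 45 had the same direction on both diets. On chromosome 7 this held for 29 of 39 (74.4%) and on the remaining chromosomes for 16 of 48 (33.3%), where 5.94% and 2.68% of tested genes were called on low protein. Of those 16, 10 lay on chromosomes 9 and 19, where 18 genes were called on normal protein. Outside chromosomes 7, 9 and 19, 6 of 30 (20%) were shared. Klk1b22 ranged from 49.2 to 132 CPM in KO_LP against 0.991 to 1.74 in WT_LP, with a log2 fold of 5.88. Bcat2 had a log2 fold of 0.75 there against 1.47 on normal protein, a difference with an edgeR adjusted p of 0.173. Fam174b, called at -0.84 on normal protein, was at 0.13 on low protein (difference, edgeR adjusted p = 0.158).

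**Figure D5:**
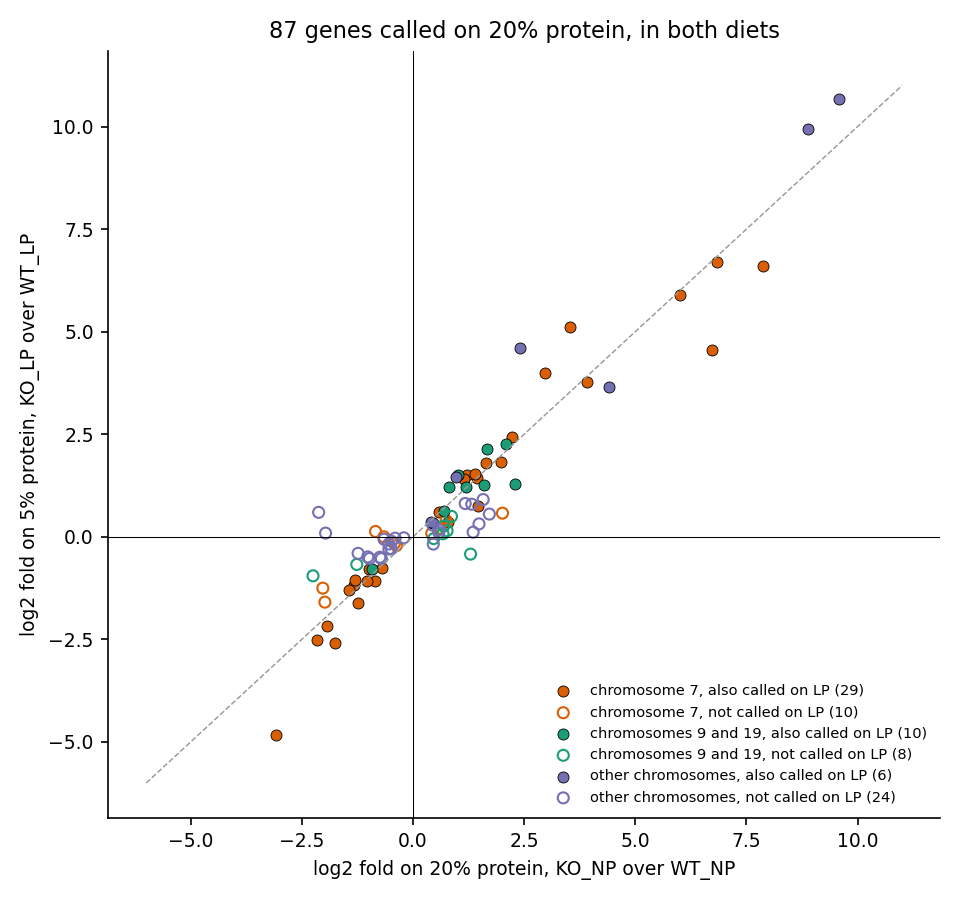
Each point is 1 of the 87 genes called on normal protein, by its log2 fold there (x axis) and on low protein (y axis), coloured by chromosome; filled points were also called on low protein and the dashed line marks equal values. The 29 filled chromosome 7 points lie on the same side of 0 on both diets, and 24 of the 30 points outside chromosomes 7, 9 and 19 are open.

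For no gene did the genotype effect differ between the diets at an adjusted p of 0.05 in edgeR (0 of 15165, lowest adjusted p = 0.158). Before adjustment, 2430 genes (16%) lay under 0.05. Both limma fits, with voom weights or on log2 normalized values, called 0 as well, while DESeq2 called 117. The calls seen on 1 diet only are therefore not shown by edgeR to be particular to it.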

How the data were processed

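Kidney cortex RNA of 24 mouse libraries was measured with QuantSeq, per the labels' protocols; 12 libraries enter the main comparison. The authors deposited raw counts per gene (16921 genes) and a normalized signal, which equals the counts divided by 1 size factor per library; DESeq2 1.22.2 and GRCm38 are named in the submitters' processing notes. For the aligner, the counter and its use of strand, nothing is given in the sources used here. Every gene has a mean count of at least 3. From the counts, edgeR 4.0.16 (filterByExpr, TMM scaling, robust quasi-likelihood fit of 4 group means over 24 libraries) tested 15165 genes (two-sided), and p-values were adjusted over all of these after Benjamini and Hochberg; library measures had exact permutation tests (924 splits). CPM were scaled by TMM. The test was checked on simulated counts. DESeq2 1.42.0, limma 3.58.1 (voom, or log2 of the signal plus 1), sva 3.50.0, other filters, thinned counts and leaving out each of the 12 libraries were the alternatives. Symbols absent from the files, positions and transcripts came from GENCODE on GRCm38; blastn 2.17.0 found copies of at least 90% identity over 80% of a transcript, and both RefSeq promoters asked for matched by symbol. In the 30 replicate pairs within KO_NP or within WT_NP, the chi-square per degree of freedom was 5.74 to 66.0 against counting error, so none was the same library sequenced again. Whether libraries came from the same mouse was not tested. The text names called genes with a proper symbol and at least 5 CPM (12 largest rises and falls), up to 2 called members of each of 47 lists, Fgf21, Klb, Fgfr1 and Kl, and called genes within 5 Mb of Fgf21. Other genes (Snhg14, Me3, Ethe1, Ugt2a3, Car12, Acp6, Nmnat3, BC049352, Tmprss4, Mpzl2, Dbp, Dusp6, Pgm2l1, the other kallikreins, the Gm transcripts, gene copies and overlapping genes) were chosen after their values were seen. The comparison and the lists were chosen with earlier results of these data known. The labels give no batch, and a batch that followed the groups cannot be told apart from genotype. Intervals and floors cover counting error only.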

Additional observations from a re-analysis of the deposited data

Results flagged for a closer look

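In 29 of 234 groups of 6 libraries, the highest or lowest library lay apart from the other 5 by Dixon's test at the 95% level. The test flags about 1 in 20 groups by chance where values are independent and normally distributed. CPM of genes with few counts, such as Gm44954 with 1 count in WT_NP, do not meet this. The 29 flags are therefore not read as an excess over that share. In KO_NP 6 these were Crtc3 at 14.4 CPM, Hddc3 at 18.7, Lrrc28 at 16.6, Snord118 at 7.41 and Gm42397 at 5.04, each nearer to the wild type level than the other 5 knockout libraries, and the iron handling list at a mean of 4.84 log2 CPM, the lowest of its group. In KO_NP 2 Emc10 stood at 79.0 CPM, the red cell transcripts at 7.96 log2 CPM and the organic anion and cation transporters at 5.95. KO_NP 1 was high for Gm28078 at 1.88 CPM and low for glucocorticoid responsive genes at 4.83 log2 CPM.

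WT_NP 1 was low for Klk1b22 at 0.261 CPM and Lrrc28 at 16.3. Its mean log2 CPM was high for macrophage markers at 6.61, T and NK cell markers at 2.37, MHC genes at 5.65 and chemokines at 4.53, and low for intercalated cell markers at 4.37, amino acid catabolism at 5.58 and urea, creatine and polyamine synthesis at 5.13. WT_NP 6 stood apart for Car12 at 61.5 CPM, Lmtk3 at 5.33 and Ugt2b37 at 146.7, WT_NP 4 for Xbp1 at 99.9, and WT_NP 2 for Klk1b27 at 1.38, Klk1b9 at 1.73 and Gm17511 at 0.543. WT_NP 5 was the highest for Gm15459 at 0.266 CPM and Gm44954 at 0.0532.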

How the results depend on the processing

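No paired analysis was possible because the labels give each library its own code and the groups share no replicate numbers. The 87 calls became 246 with DESeq2 and 140 with voom quality weights, while leaving out 1 library gave 52 (KO_NP 1) to 92. Outside chromosome 7, the 48 calls became 27 when genes of chromosome 7 were left out before adjustment, 185 with DESeq2, 93 with voom and 24 to 55 without 1 library, with 24 without KO_NP 1, 28 without KO_NP 5 and 27 without WT_NP 6. Bst2, Car12, Fxyd6, G6pc, Mpzl2, Snord118, Tmprss4, Ugt2b37 and Xbp1 lost their call when chromosome 7 was left out (adjusted p = 0.0533 to 0.0787). On low protein, the 445 calls became 290 with 1 surrogate variable, 910 with DESeq2, 877 with voom, 161 with only the 12 low protein libraries in the fit, and 358 to 708 without 1 normal protein library, the highest without WT_NP 1. The difference of the genotype effects went from 0 to 117 calls with DESeq2. The total count of KO_NP minus WT_NP was -2.99 M (-4.19 to -2.09 M without 1 library) and passed only without WT_NP 6; the mitochondrial share differed by 2.72 points (2.03 to 3.11 without 1 library). Xbp1 lost its call with DESeq2 size factors, Xbp1, Ugt2b37 and Gm17511 without a filter on low counts, and Ugt2b37 with 1 surrogate variable. Besides the copies named above, voom weights did not call Bst2, Fam174b, Fxyd6 or Mpzl2. Limma on log2 normalized values did not call Fxyd6, Gm17511, Mpzl2, Ugt2b37 or Xbp1. With thinned counts Bst2, Fxyd6, Mpzl2, Pgm2l1 and Ugt2b37 lost the call, and with a filter of 5 CPM Bst2 and Mpzl2. The causes were not tested. Of the 87 genes, 38 were called in every alternative that tested them, 24 of them on chromosome 7, and 48 kept the call without each of the 12 libraries. No called gene turned its direction. Without WT_NP 1, 8 of 47 list medians changed sign, among them those of macrophage markers (-0.30 to 0.14), chemokines (-0.24 to 0.16) and extracellular matrix (-0.16 to 0.10). Among 2433 values of single genes under an alternative, 2082 kept their side of the threshold, 349 fell below it and 2 rose above it; 11 of 1031 list medians moved beyond 1 SD. DESeq2 size factors left the median of all genes at -0.01 and 62.4% of calls higher, against 59.8%. Genes under 1 CPM are limited by depth.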
